A study of Mus musculus with 2 samples.

Results

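The cadherins and protocadherins were the 91 gene rows, of 49585 in each deposited table, whose name is Cdh and a number, Pcdh and a number, or Pcdh with a, b, ga, gb or gc and a number. They fall into 23 cadherins, 12 non-clustered protocadherins and 56 clustered protocadherins, of which 12 belong to the alpha, 22 to the beta and 22 to the gamma cluster. The alpha rows include a pair that shares the symbol Pcdha11, so the rows hold 90 symbols, and the C-type alpha genes Pcdhac1 and Pcdhac2 fall outside the naming rule. RNA sequencing compared Nestin+ mesenchymal stromal cells cultured from the heart with those from the bone marrow of Nestin-GFP transgenic C57BL/6 mice at 7 days of age. Heart cells were at passage 10, grown with 20 ng/ml EGF, 20 ng/ml bFGF and 4 ng/ml cardiotrophin-1, with N2 and B27 supplements. Bone marrow cells were also at passage 10, grown in a different published medium, so tissue and medium cannot be told apart. Each tissue gave 1 library, and the sources used here do not say how many animals each culture came from. Nothing below has a replicate check, and no p-value or standard error is given.

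Cadherins are calcium-dependent adhesion proteins of the cell surface. Classical cadherins bind their like on the next cell and, through beta-catenin and alpha-catenin inside the cell, hold on to actin. Protocadherins carry related outer domains but lack the catenin-binding tail. The clustered genes lie side by side on mouse chromosome 18, where each alpha or gamma gene joins its own first exon to a shared set of end exons, and neurons use the resulting mixtures of surface proteins to tell self from other. In mesenchyme, Cdh11 (osteoblast cadherin) and Cdh2 (neural or N-cadherin) are the cadherins best known for joining fibroblasts and bone-forming cells.

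The deposited values are RPKM, reads scaled to gene model length and to library size, so levels of different genes can be set side by side. The library totals inferred from these values and the model lengths were 64872683 reads for heart and 53999963 for bone marrow. All 7 stromal markers were at or above 1 RPKM in heart and 6 of 7 in bone marrow, the exception being Thy1 at 16.7 RPKM in heart cells and 0.0603 in bone marrow cells. Nes itself stood at 8.74 RPKM in heart cells and 1.20 in bone marrow cells. Of 38 markers of endothelial, epithelial, blood, neural, skeletal muscle and cardiac muscle cells, 34 were below 1 RPKM in both libraries. The sharpest exception was Tubb3, a neuronal tubulin, at 3.80 RPKM in heart cells and 26.4 in bone marrow cells. In such bulk cultures, fewer cells of a type and less RNA per cell cannot be told apart.

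The start regions of 5 members outside the clusters with higher levels in heart are shown first, with Pcdh19 as a member of nearly equal level in the libraries. Each is the 250 bases upstream of the RefSeq transcript start (GRCm38.p6), read 5′ to 3′ on the gene's own strand, with matches to GGGCGG (the GC box, either strand) in capitals. The Pcdh7 window runs past 57717967, where the deposited gene model starts, and so lies partly inside that model. The Pcdh18 window also overlaps its model, which begins at 49757325 on the minus strand.
Pcdh9 (chr14:93890680-93890929, minus strand): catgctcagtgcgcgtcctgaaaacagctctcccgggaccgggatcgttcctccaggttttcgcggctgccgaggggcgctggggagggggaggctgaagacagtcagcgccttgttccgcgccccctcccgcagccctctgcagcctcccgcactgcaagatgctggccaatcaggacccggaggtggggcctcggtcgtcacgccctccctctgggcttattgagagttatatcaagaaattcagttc
Pcdh17 (chr14:84443313-84443562, plus strand): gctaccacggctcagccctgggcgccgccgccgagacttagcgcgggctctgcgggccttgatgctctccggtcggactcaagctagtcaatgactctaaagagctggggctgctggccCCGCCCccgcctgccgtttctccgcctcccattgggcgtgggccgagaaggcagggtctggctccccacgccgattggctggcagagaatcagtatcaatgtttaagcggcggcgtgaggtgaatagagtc
Pcdh18 (chr3:49757317-49757566, minus strand): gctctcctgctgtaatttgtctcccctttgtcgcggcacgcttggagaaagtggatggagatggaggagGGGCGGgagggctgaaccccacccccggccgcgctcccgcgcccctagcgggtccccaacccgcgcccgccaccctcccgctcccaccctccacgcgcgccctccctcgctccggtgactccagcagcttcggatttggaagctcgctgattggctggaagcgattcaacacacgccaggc
Pcdh7 (chr5:57717831-57718080, plus strand): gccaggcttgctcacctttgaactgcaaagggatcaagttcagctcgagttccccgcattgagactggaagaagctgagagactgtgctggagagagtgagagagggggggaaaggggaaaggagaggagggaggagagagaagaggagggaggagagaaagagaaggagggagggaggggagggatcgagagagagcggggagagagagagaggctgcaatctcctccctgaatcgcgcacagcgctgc
Cdh6 (chr15:13173676-13173925, minus strand): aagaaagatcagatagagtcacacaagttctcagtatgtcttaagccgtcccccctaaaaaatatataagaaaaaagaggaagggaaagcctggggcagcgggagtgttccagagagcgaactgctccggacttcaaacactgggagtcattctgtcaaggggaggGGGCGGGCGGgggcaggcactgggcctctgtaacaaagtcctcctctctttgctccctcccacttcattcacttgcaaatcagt
Pcdh19 (chrX:133688994-133689243, minus strand): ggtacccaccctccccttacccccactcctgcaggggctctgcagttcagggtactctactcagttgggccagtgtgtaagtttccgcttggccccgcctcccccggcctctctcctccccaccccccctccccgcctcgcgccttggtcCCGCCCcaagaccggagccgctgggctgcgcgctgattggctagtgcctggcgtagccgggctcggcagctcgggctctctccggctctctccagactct
Of these 6 windows, 4 held a GC box, which 32.7% of 32851 windows of the same length hold. The capitals in Cdh6 are a pair of overlapping matches. None of the 6 held CAGGTG on either strand, the core bound by Snail and Zeb repressors, which 17.2% of all windows hold, and none held TATAAA on either strand, which 12.4% hold. Their CG dinucleotides numbered between 6 in Cdh6 and 23 in Pcdh18, against a median of 6 over all windows. A window was found for 22 of the 32 members that lie outside the chromosome of the clusters, of which 9 held a GC box and 2 held CAGGTG. Cdh13, which was higher in bone marrow, was not among the 22. These matches describe letters in a window and were not tied to any binding.

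The family as a whole was more abundant in the heart culture, through its protocadherins. Summed over all 91 rows, the level was 194 RPKM in heart cells and 108 in bone marrow cells, a ratio of 1.80, while the sum over all symbols had a ratio of 0.937. Non-clustered protocadherins summed to 63.0 RPKM in heart cells and 21.3 in bone marrow cells, and clustered protocadherins to 66.5 in heart and 25 in bone marrow. The 23 cadherins summed to 64.1 RPKM in heart cells and 61.2 in bone marrow cells. Cadherins therefore made up 33.1% of the family's summed RPKM in heart and 56.9% in bone marrow.

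Few members were abundant, and the same held for all symbols. Of 91 members, 27 reached 1 RPKM in at least 1 library and 12 reached 5 RPKM, while 8 were listed at 0 in both. Of 49492 symbols, 11355 reached 1 RPKM and 7659 reached 5 RPKM, while 27872 were listed at 0 in both. A member was counted as higher in a library where log2((heart + 1)/(bone marrow + 1)), the log2 ratio used throughout, was 1 or more away from 0 and the larger of its values was 5 RPKM or more. By that rule 7 of the 12 were higher in heart, where 7.56% of 7659 symbols at that floor were, and 1 was higher in bone marrow, where 9.51% of symbols were. Of the same 12, 7 reached 5 RPKM through heart alone and 1 through bone marrow alone. Over all 7659 symbols at that floor, 702 did so through heart alone and 908 through bone marrow alone. A member that enters through 1 library had to differ or lie close to the floor. Setting the median ratio of abundant genes to 0 shifts heart by 0.15 on the log2 scale, and turns 579 symbols higher in heart and 728 in bone marrow into 704 and 583, while the members stay at 7 and 1. At a floor of 1 RPKM, 13 of 27 members were higher in heart against a background of 7.78%, and 2 in bone marrow against 9.26%. Here 13 of the 27 reached the floor through heart alone and 3 through bone marrow alone. Over all 11355 symbols at that floor, 748 did so through heart alone and 714 through bone marrow alone. The same limit holds for the 27. The median log2 ratio of these 27 was 0.99, and that of the 11355 symbols at or above 1 RPKM was -0.11. The members' median was 1.65 with a pseudocount of 0.1 RPKM, 0.32 with one of 5 and 0.037 over all members above 0, so its size depends on these choices. Members just inside this floor were Pcdhgb1 at 1.05 RPKM and Pcdhga5 at 1.16 in their higher libraries, and those just outside were Pcdhb2 at 0.904 and Cdh24 at 0.881.

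**Figure D1:**
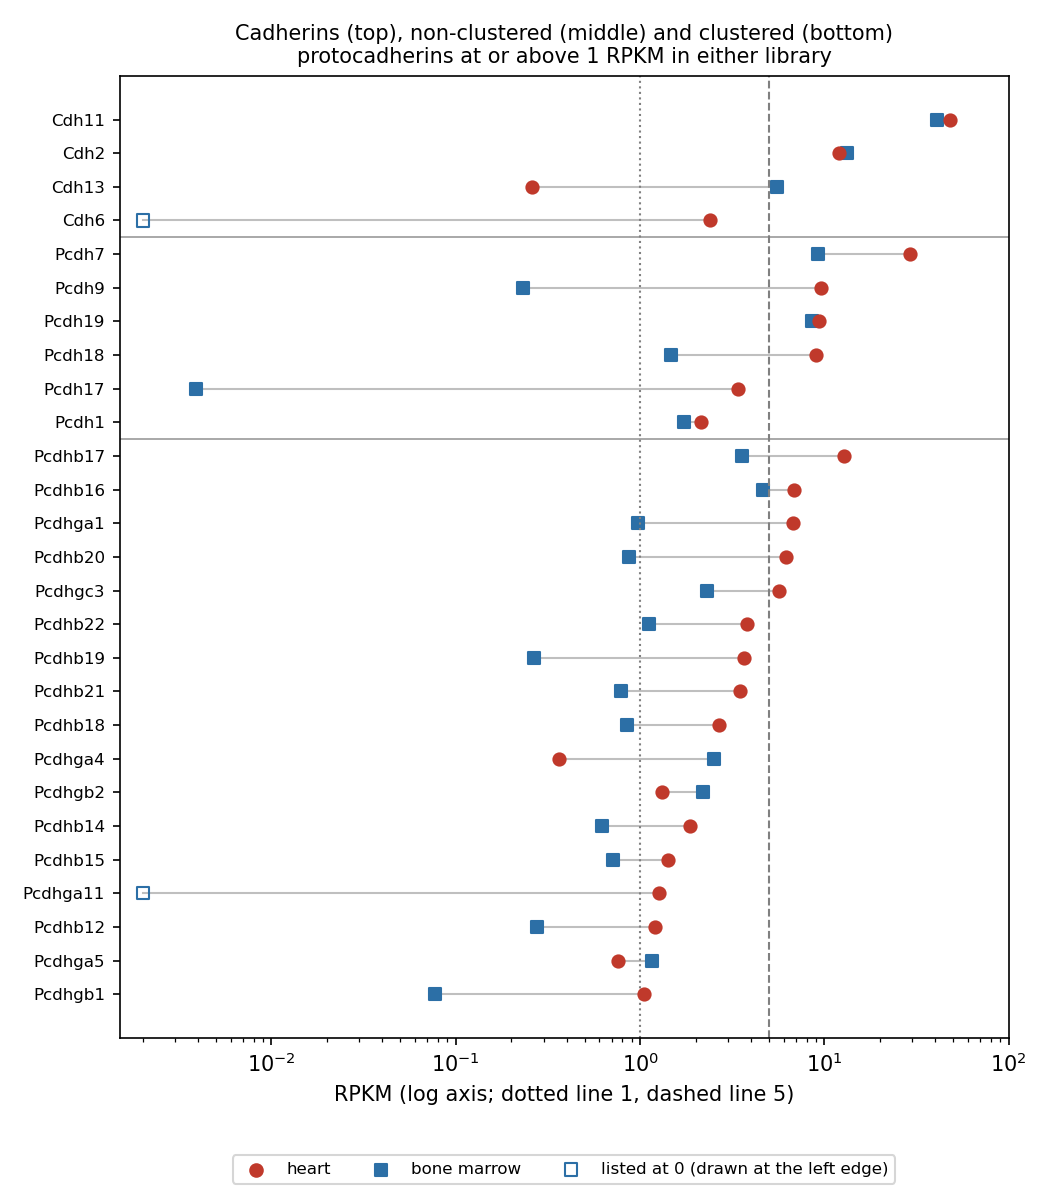
RPKM of the 27 members that reached 1 RPKM, on a log axis, with heart as circles and bone marrow as squares, 1 library each and no error bars. Cdh11, Cdh2, Pcdh19 and Pcdh1 have nearly touching symbols, while Pcdh9, Pcdh17 and Cdh6 lie far apart, and Cdh13, Pcdhga4, Pcdhgb2 and Pcdhga5 have their squares to the right.

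The 2 leading classical cadherins were close in level between the cultures. Cdh11 (ENSMUSG00000031673, chromosome 8, 102632095 to 102785642, minus strand) was the most abundant member of each library, at 48.3 RPKM in heart cells and 40.9 in bone marrow cells, from 27907 and 19643 reads. Heart thus exceeded bone marrow 1.18-fold, and the exact 95% counting interval began at 1.16. Such intervals cover counting error in these 2 libraries and not the spread between cultures. It alone made up 75.4% of summed cadherin RPKM in heart and 66.7% in bone marrow. Cdh2 (chromosome 18, 16588877 to 16809246, minus strand) stood at 12.0 RPKM in heart cells and 13.2 in bone marrow cells, a ratio of 0.904 with an interval of 0.872 to 0.937. Its log2 ratio of -0.13 became 0.0036 when the median ratio of abundant genes was set to 0, so no direction is given for Cdh2. Cdh11 thus exceeded Cdh2 in level 4.04-fold in heart and 3.09-fold in bone marrow.

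Outside that pair, 2 other cadherins reached 1 RPKM, and they went opposite ways. Cdh13 encodes T-cadherin, which is held in the membrane by a lipid anchor, has no tail to bind catenins and is a receptor for the fat hormone adiponectin. It stood at 0.259 RPKM in heart cells and 5.53 in bone marrow cells, from 189 and 3353 reads (chromosome 8, 118283733 to 119324921, plus strand). That is 21.3-fold higher in bone marrow, with a counting interval of 18.4 to 24.8, and it was the only member counted as higher there at 5 RPKM. Cdh6, a classical cadherin of the same type as Cdh11 and known from kidney development, stood at 2.40 RPKM in heart and was listed at 0 in bone marrow (chromosome 15, 13034200 to 13173639, minus strand). Its gene model in the files has no match of known length, so its reads were not recovered and no fold is given.

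The cadherins that mark other cell types were low. Cdh1, the E-cadherin of epithelia, stood at 0.00337 RPKM in heart cells and 0.623 in bone marrow cells, from 1 and 154 reads. The excess in bone marrow was 185-fold, with limits of 32.7 and 7354. All 7 epithelial markers, Cdh1 among them, were below 1 RPKM in both libraries and summed to 0.137 RPKM in heart cells and 1.81 in bone marrow cells, with Cldn4 at 0 in both and Epcam at 0 in bone marrow. Krt19 and Krt18, keratins of simple epithelia, lay on the same side as Cdh1. Krt19 stood at 0.0166 RPKM in heart cells and 0.908 in bone marrow cells, and Krt18 at 0.0220 in heart and 0.212 in bone marrow. Krt8 and Epcam of the same list lay on the other side. Krt8 stood at 0.0854 RPKM in heart cells and 0.0616 in bone marrow cells, and Epcam at 0.00756 in heart. The part of these genes in the Cdh1 difference was not tested. Cdh3, the placental or P-cadherin that neighbours Cdh1, had 4 reads in heart and 21 in bone marrow. Cdh5, the cadherin of endothelial junctions, had 2 reads in heart and 1 in bone marrow. Cdh15, the M-cadherin of muscle precursors, had 4 reads in heart and 0 in bone marrow, and Cdh17 of the gut lining had 10 in heart and 0 in bone marrow. Cdh16 of kidney tubules had 0 in heart and 1 in bone marrow. Of the 19 cadherins below 1 RPKM in both libraries, Cdh24 was highest at 0.881 RPKM in heart cells and 0.781 in bone marrow cells, and Cdh19 alone was listed at 0 in both. Cdh23, which forms the tip links of inner ear hair cells with Pcdh15, had 43 reads in heart and 31 in bone marrow.

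Non-clustered protocadherins supplied the widest differences toward heart. The 6 members at or above 1 RPKM all had positive log2 ratios, between 0.10 and 3.11. Of the 4 at or above 5 RPKM, 3 were counted as higher in heart, where 7.56% of all symbols at that floor were. Of these 4, 2 reached the floor through heart alone, as did 702 of all 7659 symbols at it. The limit stated above therefore holds for this count. Pcdh9 (chromosome 14, 93013410 to 93890679, minus strand), of the delta1 group whose members share conserved motifs inside the cell, stood at 9.64 RPKM in heart cells and 0.231 in bone marrow cells, from 4160 and 83 reads, the smallest whole reads that fit its values, since the annotated model length did not give whole reads. Its 41.7-fold ratio had a counting interval of 33.6 to 52.5. Pcdh7 (chromosome 5, 57717967 to 58133230, plus strand) belongs to the same group. It was the most abundant protocadherin of each library, at 29.0 RPKM in heart cells and 9.22 in bone marrow cells, from 19982 and 5279 reads. The ratio was 3.15 with an interval of 3.06 to 3.25. A gene model on the opposite strand, 4932441J04Rik, covers 21.1% of the exon bases of Pcdh7, and was itself at 0.148 RPKM in heart cells and 0 in bone marrow cells. No source used here says whether counting used strand, and reads of that stretch cannot be assigned to either strand.

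The delta2 protocadherins, several of which recruit the WAVE complex that builds branched actin, were not alike. Pcdh18 (chromosome 3, 49743296 to 49757325, minus strand) stood at 8.97 RPKM in heart cells and 1.46 in bone marrow cells, 6.13-fold with an interval of 5.54 to 6.80. Pcdh17 lies on chromosome 14 (84443563 to 84537060, plus strand) and was at 3.40 RPKM in heart cells and 0.00389 in bone marrow cells, from 2096 and 2 reads found in the same way as for Pcdh9. The ratio of 872 rests on those 2 reads and has an interval of 241 to 7208. Its log2 ratio of 2.13 counts at a floor of 1 RPKM but not at 5. Pcdh19, an X-linked member whose human form is mutated in a female-limited epilepsy, stood at 9.29 RPKM in heart cells and 8.59 in bone marrow cells, a ratio of 1.08 with an interval of 1.04 to 1.12 (133582860 to 133688987, minus strand). Pcdh10 and Pcdh8 were both below 0.1 RPKM in each library, Pcdh10 with 68 reads in heart and 4 in bone marrow.

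Of the remaining non-clustered genes, Pcdh1 stood at 2.13 RPKM in heart cells and 1.74 in bone marrow cells, a ratio of 1.23 with an interval of 1.12 to 1.34. Pcdh11x, also X-linked, had 244 reads in heart and 1 in bone marrow, at 0.310 and 0.00153 RPKM. Pcdh15 had 80 reads in heart and 3 in bone marrow. Pcdh20 had 16 reads in heart and 15 in bone marrow. Pcdh12, an endothelial protocadherin, had 3 reads in heart and 2 in bone marrow. The reads of Pcdh11x, Pcdh15 and Pcdh12 were found in the same way as for Pcdh9 and are minimum counts. On chromosome 14, the neighbours Pcdh17, Pcdh20 and Pcdh9 therefore differed widely among themselves in the heart library, at 3.40, 0.0449 and 9.64 RPKM.

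**Figure D2:**
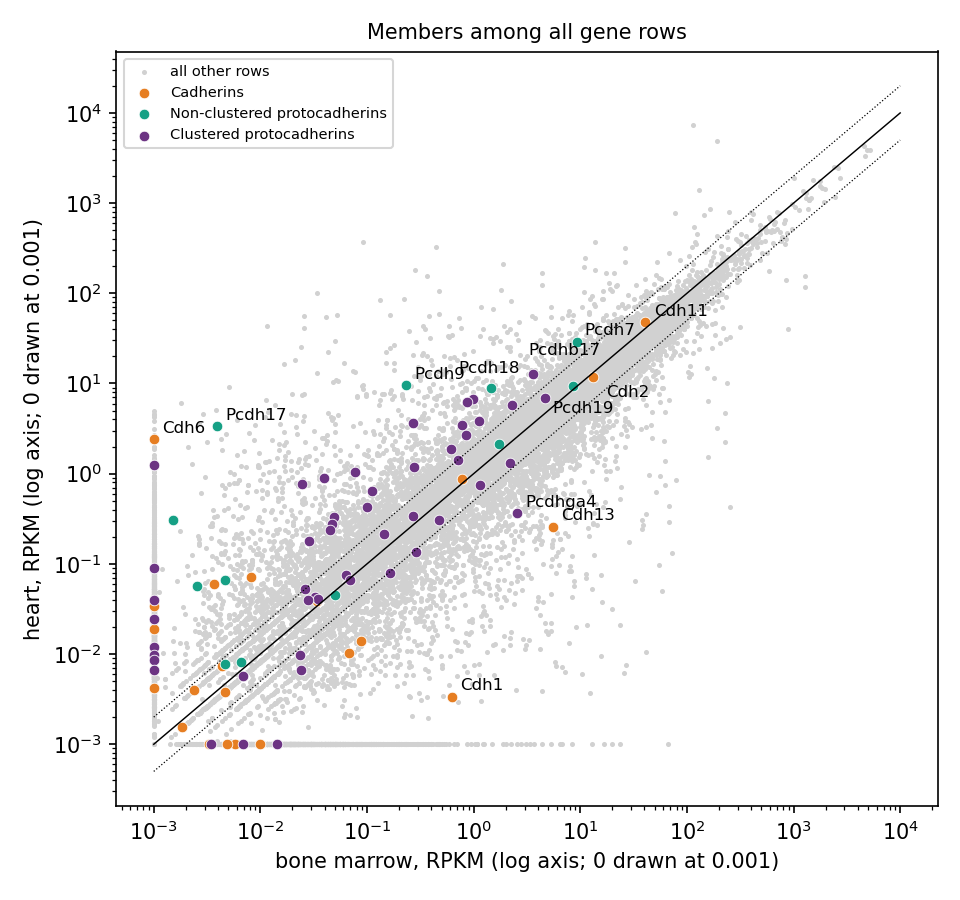
Each row's RPKM in heart (vertical) against bone marrow (horizontal) on log axes, with values of 0 drawn at 0.001, the solid line at equality and dotted lines at 2-fold. Protocadherins above 1 RPKM lie on or above the line of equality except Pcdhga4, Pcdhgb2 and Pcdhga5, Cdh11, Cdh2 and Pcdh19 lie close to it, and Cdh13 lies below it.

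The beta cluster was abundant toward its far end and low toward its start in both libraries. Its genes each have their own complete coding exon and share no end exons, and the share of their 50-base stretches that also occurs in transcripts of other genes had a median of 4.48%. The first 11 genes, Pcdhb1 to Pcdhb11, were all below 1 RPKM in both libraries and summed to 2.93 RPKM in heart cells and 0.818 in bone marrow cells. The last 11, Pcdhb12 to Pcdhb22, summed to 44.2 RPKM in heart cells and 13.7 in bone marrow cells, and 10 of them reached 1 RPKM in heart cells and 3 in bone marrow cells. The exception was Pcdhb13 at 0.237 RPKM in heart. The split into these runs was made after the values were seen.

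Within the abundant run, Pcdhb17 (37484795 to 37489454, plus strand) was highest in heart, at 12.8 RPKM against 3.58 in bone marrow, from 3855 and 901 reads. Its ratio was 3.56 with an interval of 3.31 to 3.83. Pcdhb16 was the beta gene with the highest level in bone marrow, at 6.85 RPKM in heart cells and 4.63 in bone marrow cells, and its ratio of 1.48 was the smallest of the 10. Pcdhb19 had the widest ratio of these 10, 13.8 with an interval of 11.3 to 17.0, at 3.68 RPKM in heart cells and 0.267 in bone marrow cells. Pcdhb20 stood at 6.22 RPKM in heart cells and 0.869 in bone marrow cells. So the order of the beta genes was not the same in the libraries, although the same end of the cluster was the more abundant in both.

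The other genes of the run with at least 1 RPKM had ratios between those of Pcdhb16 and Pcdhb19. Pcdhb22 stood at 3.79 RPKM in heart cells and 1.11 in bone marrow cells. Pcdhb21 was at 3.50 RPKM in heart against 0.783 in bone marrow, and Pcdhb18 at 2.67 in heart against 0.852 in bone marrow. Pcdhb14 stood at 1.86 RPKM in heart cells and 0.618 in bone marrow cells, Pcdhb15 at 1.42 in heart and 0.714 in bone marrow, and Pcdhb12 at 1.20 in heart and 0.275 in bone marrow. The models of Pcdhb21 and Pcdhb22 overlap over 9.67% and 6.88% of their exon bases. Gm37446, on the opposite strand, covers 63.5% of Pcdhb12 and was itself listed at 0 in both libraries. Summed over all 22 beta genes, 15139 reads in heart and 3912 in bone marrow gave a ratio of 3.22 with an interval of 3.11 to 3.34. The interval of the single gene lay above 1 for 14 of the 22, below 1 for 0, and included 1 for 8, all 8 in the first run. Of those 8, Pcdhb5 had the most reads, 77 in heart and 51 in bone marrow. A counting interval widens as reads fall, so this tally depends on read number, and it was not made over all symbols.

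Among the low genes of the first run, Pcdhb2 and Pcdhb3 had the widest ratios. Pcdhb2 had 165 reads in heart and 6 in bone marrow, a ratio of 22.9 with an interval of 10.3 to 63.3. Pcdhb3 had 188 reads in heart and 5 in bone marrow, a ratio of 31.3 with an interval of 13.2 to 97.5. Both stayed under the floor of 1 RPKM.

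**Figure D3:**
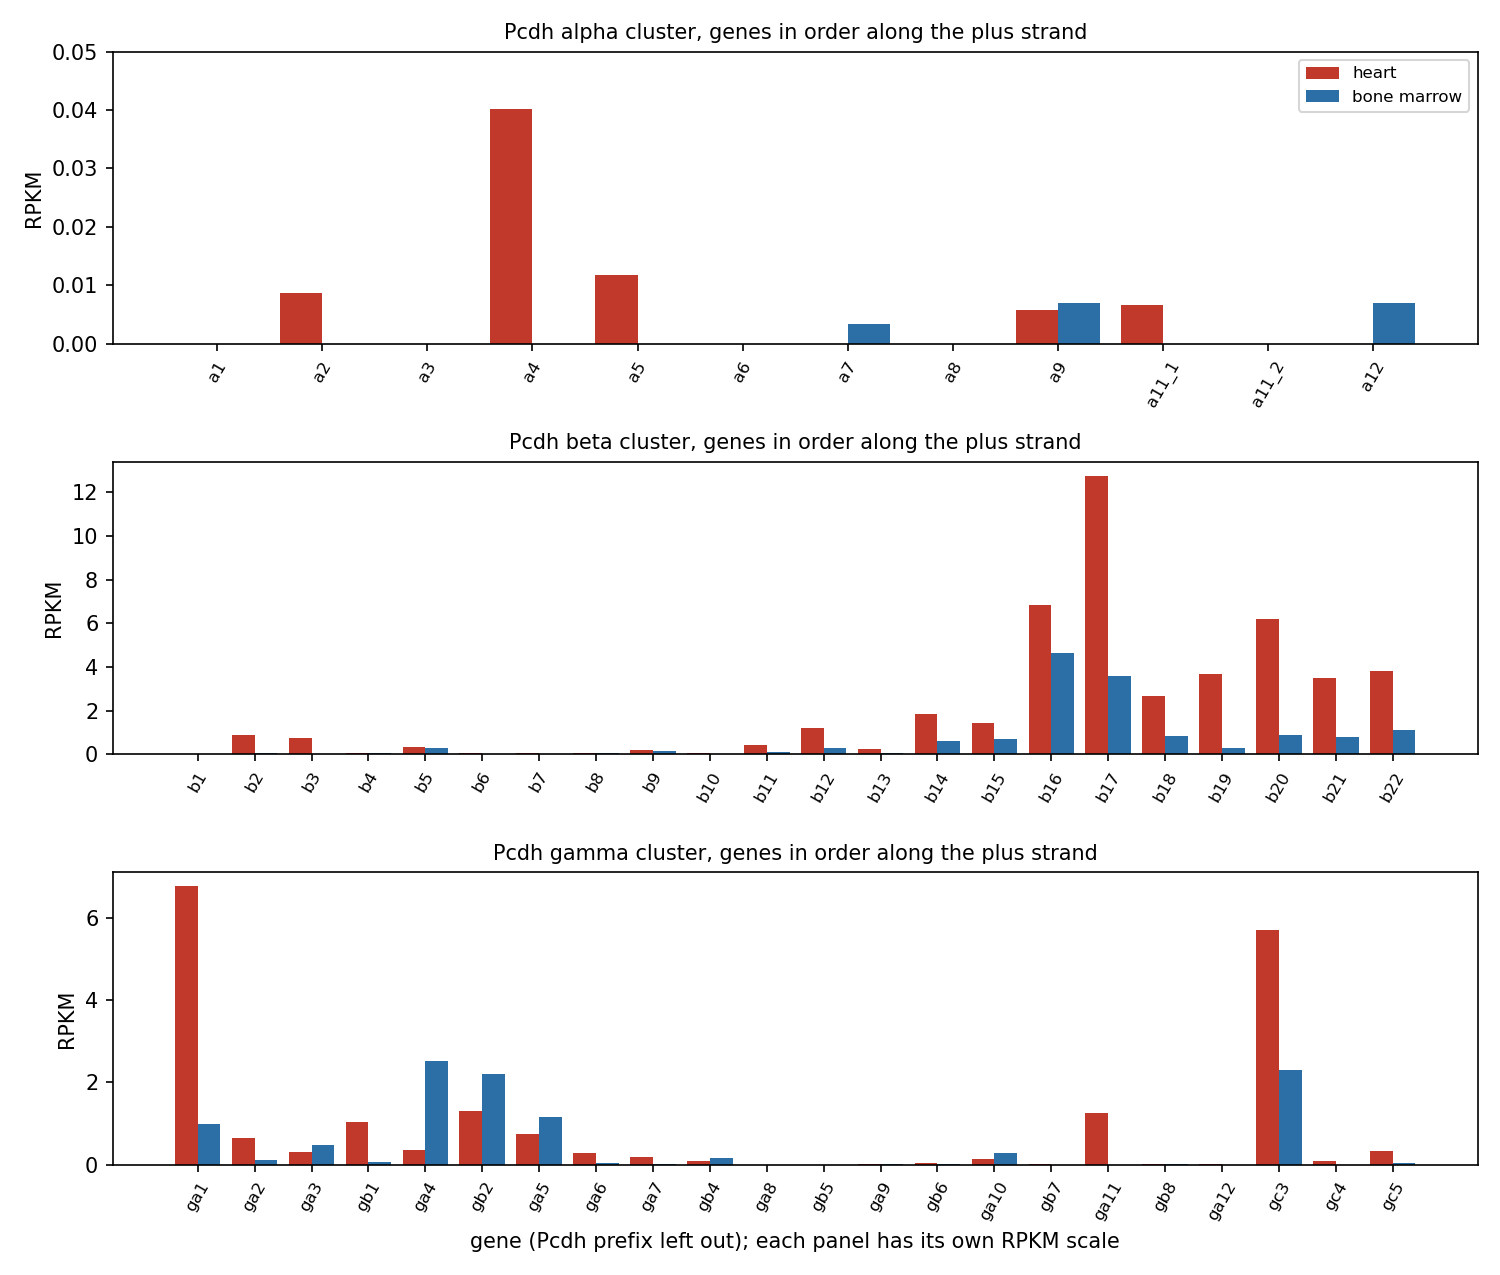
RPKM of the clustered protocadherins in their order along chromosome 18, heart bars left of bone marrow bars, with 1 library each, no error bars and a separate scale for each panel. The alpha panel ends at 0.05 RPKM, the beta bars stand at the far end of the cluster, and the gamma bars of bone marrow exceed those of heart mainly at Pcdhga4, Pcdhgb2 and Pcdhga5.

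The gamma cluster went both ways, gene by gene. Pcdhga1 (37661793 to 37841873), the first gene of the cluster, stood at 6.77 RPKM in heart cells and 0.980 in bone marrow cells, from 2356 and 284 reads, a ratio of 6.91 with an interval of 6.10 to 7.84. Pcdhgc3, a C-type gene near the end that many cell types use, was the next highest in heart at 5.71 RPKM against 2.30 in bone marrow, a ratio of 2.49. Pcdhga4 was the highest gamma gene of bone marrow, at 0.362 RPKM in heart cells and 2.53 in bone marrow cells, from 111 and 646 reads. Bone marrow exceeded heart 6.99-fold, with limits of 5.71 and 8.63, and its log2 ratio of -1.37 counts at the floor of 1 RPKM only.

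Pcdhgb2, Pcdhga5 and Pcdhga3 near Pcdhga4 shared its direction, while Pcdhgb1 and Pcdhga2 did not. Pcdhgb2 stood at 1.32 RPKM in heart cells and 2.19 in bone marrow cells, and Pcdhga5 at 0.757 in heart and 1.16 in bone marrow. Pcdhga3 had 93 reads in heart and 120 in bone marrow. Pcdhgb1, which lies between Pcdhga3 and Pcdhga4, stood at 1.05 RPKM in heart cells and 0.0769 in bone marrow cells, a ratio of 13.6 with an upper limit of 21.5. Pcdhga2 had 194 reads in heart and 28 in bone marrow. Farther along, Pcdhga11 had 389 reads in heart and 0 in bone marrow. Setting the 0 to a floor of 3 reads gives a ratio of 108, and the exact lower limit of the ratio was 87.4. Of its 50-base stretches, 72.4% also occur in transcripts of other genes, so its reads are uncertain.

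Over the 20 gamma genes with recovered reads, the interval of the ratio lay above 1 for 8, below 1 for 6 and included 1 for 4, and the other 2, Pcdhga8 and Pcdhgb5, had 0 reads in both libraries. The 4 had 12 reads or fewer in each library, and this tally too was not made over all symbols. The reads of the 20 genes, 6299 in heart and 2711 in bone marrow, gave a ratio of 1.93 with an interval of 1.85 to 2.02. Between 31.5% and 66.8% of the exon bases of each gamma model are shared with other models on the same strand. Since Pcdhga8 and Pcdhgb5 contain the shared end exons and had 0 reads, reads on those exons were not counted for every gene that holds them. No source used here says how they were divided, and levels of single gamma genes are uncertain.

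The alpha cluster was close to 0 in both cultures. None of its 12 rows reached 1 RPKM, and together they summed to 0.0731 RPKM in heart cells and 0.0173 in bone marrow cells. Pcdha4 was the highest of them in heart at 0.0402 RPKM and was listed at 0 in bone marrow, where Pcdha12 and Pcdha9 had 2 reads each. The 10 rows with recovered reads held 9 reads in heart and 5 in bone marrow, with an interval of their ratio of 0.451 to 5.69, and 5 rows were at 0 in both. The neighbouring Pcdhac2 stood at 0.123 RPKM in heart cells and 0.0189 in bone marrow cells. Alpha models share between 38.9% and 91.4% of their exon bases with others on the same strand, so the division of reads is uncertain here too.

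Members were also counted by a plain RPKM ratio of at least 2, among the 36 with whole reads that had at least 50 of them in the higher library. Of these 36, 22 were higher in heart, where 14.1% of 9026 symbols were, and 5 were higher in bone marrow, where 14.0% were. A member enters this set through 1 library alone where the other has fewer than 50 reads. Pcdhga11, with 389 reads in heart and 0 in bone marrow, did so, as did Cdh1 with 1 in heart and 154 in bone marrow. The limit stated for the RPKM floors therefore holds for these counts. The 22 comprised 19 clustered and 3 non-clustered protocadherins. The 5 were Cdh1, Cdh13, Pcdhga4, Pcdhgb4 and Pcdhga10. Only 4 cadherins entered this set, and the 2 counted by the rule, Cdh1 and Cdh13, lay toward bone marrow. Cdh6 could not enter because its reads were not recovered, although the log2 rule with a floor of 1 RPKM counted it as higher in heart. The direction of the cadherins by this rule therefore leaves Cdh6 out. In Pcdhga10, 99.0% of 50-base stretches also occur in transcripts of other genes, in Pcdhga4 65.3% and in Pcdhgb4 41.5%. Their reads, such as the 42 in heart and 73 in bone marrow of Pcdhga10, are uncertain for that reason.

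The genes of proteins that cadherins work with were measured as well, with the 2-fold rule at 5 RPKM that counted 7.56% of all symbols at that floor as higher in heart and 9.51% as higher in bone marrow. Of 10 catenins, 5 reached 5 RPKM, of which 1 was higher in heart and 1 in bone marrow, too few to set apart from those shares. Ctnnb1, beta-catenin, was the most abundant at 254 RPKM in heart cells and 175 in bone marrow cells. Its relative Jup, plakoglobin, stood at 15.4 RPKM in heart cells and 1.71 in bone marrow cells, and Ctnnd1, p120-catenin, which holds classical cadherins at the surface, stood at 31.8 in heart and 69.5 in bone marrow. Ctnnd1 falls short of 2-fold when the median ratio is set to 0. The catenin median log2 ratio was -0.39.

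Genes linking junctions to actin lay more toward bone marrow. Of 16, 11 reached 5 RPKM. The rule counted 1 of the 11 as higher in heart, where 7.56% of all symbols were, and 5 as higher in bone marrow, where 9.51% were. The 5 became 4 under each of the 3 scalings and with a pseudocount of 5 RPKM, since Actn4 lay at -1.01. The list median was -0.44, against -0.11 for all symbols. Ajuba, a LIM protein of junctions, stood at 4.92 RPKM in heart cells and 19.6 in bone marrow cells, and the actin crosslinker gene Actn1 at 70.5 in heart and 212 in bone marrow. Lima1, which links alpha-catenin to actin, was at 20.8 RPKM in heart against 51.8 in bone marrow. Nectin2, an immunoglobulin-type adhesion protein, was the gene higher in heart, at 10.0 RPKM against 2.25 in bone marrow.

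Among 19 other genes of the cadherin superfamily and its signalling, 3 reached 5 RPKM, with a list median of -0.53 at or above 1 RPKM. Of the 3, 1 was higher in heart (7.56% of all symbols) and 0 in bone marrow (9.51%), too few to set apart from those shares. Under the floor of 5 RPKM, the receptor kinase gene Ret, whose protein carries cadherin-like domains, had 0 reads in heart and 1588 in bone marrow, at 4.35 RPKM there. Fat1, a giant cadherin, stood at 60.7 RPKM in heart cells and 64.3 in bone marrow cells. Dchs1, which binds Fat4 across cells, stood at 8.98 RPKM in heart cells and 0.379 in bone marrow cells. Desmosomal genes were low, with 1 of 13 at or above 1 RPKM, Pkp2 at 0.158 RPKM in heart cells and 1.92 in bone marrow cells. Of 12 cadherin-processing genes found of 13 listed, 7 reached 5 RPKM. Of the 7, 1 was higher in heart (7.56% of all symbols) and 0 in bone marrow (9.51%). The gene higher in heart was Psen2 of gamma-secretase, at 6.45 RPKM in heart cells and 2.51 in bone marrow cells. The cadherin-shedding protease gene Adam10 was highest of the list, at 35.2 in heart and 30.1 in bone marrow. Just under the floor, the proprotein convertase gene Pcsk6 differed most in the list, at 0.0178 RPKM in heart against 4.80 in bone marrow, from 6 and 1344 reads.

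Regulators of cadherin genes were measured beside them. Of 11 transcription factors, most of them known to repress Cdh1 in epithelial cells, 8 reached 5 RPKM, of which 1 was higher in heart (7.56% of all symbols) and 2 in bone marrow (9.51%). Snai2 stood at 11.1 RPKM in heart cells and 51.3 in bone marrow cells, Twist1 at 16.3 in heart and 38.5 in bone marrow, and Tcf4 at 27.1 in heart and 9.57 in bone marrow. Of 13 genes acting on protocadherin clusters, such as the insulator protein gene Ctcf and cohesin, 12 reached 5 RPKM, 11 of them neither. The 1 counted as higher in heart is a share near the 7.56% of all symbols. Ctcf stood at 14.2 RPKM in heart cells and 15.1 in bone marrow cells and the cohesin gene Rad21, highest of the list, at 29.9 in heart and 36 in bone marrow. The DNA methyltransferase gene Dnmt3a was higher in heart, at 6.56 RPKM against 2.01 in bone marrow, but like Psen2 it falls short of 2-fold with a pseudocount of 5 RPKM. Of 14 protocadherin effectors, 10 reached 5 RPKM, 1 was higher in bone marrow and 9 were neither, a share near the 9.51% of all symbols. That gene, Marcks, encodes an actin-binding membrane protein and stood at 81.6 RPKM in heart cells and 177 in bone marrow cells, short of 2-fold when the median ratio is set to 0.

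**Figure D4:**
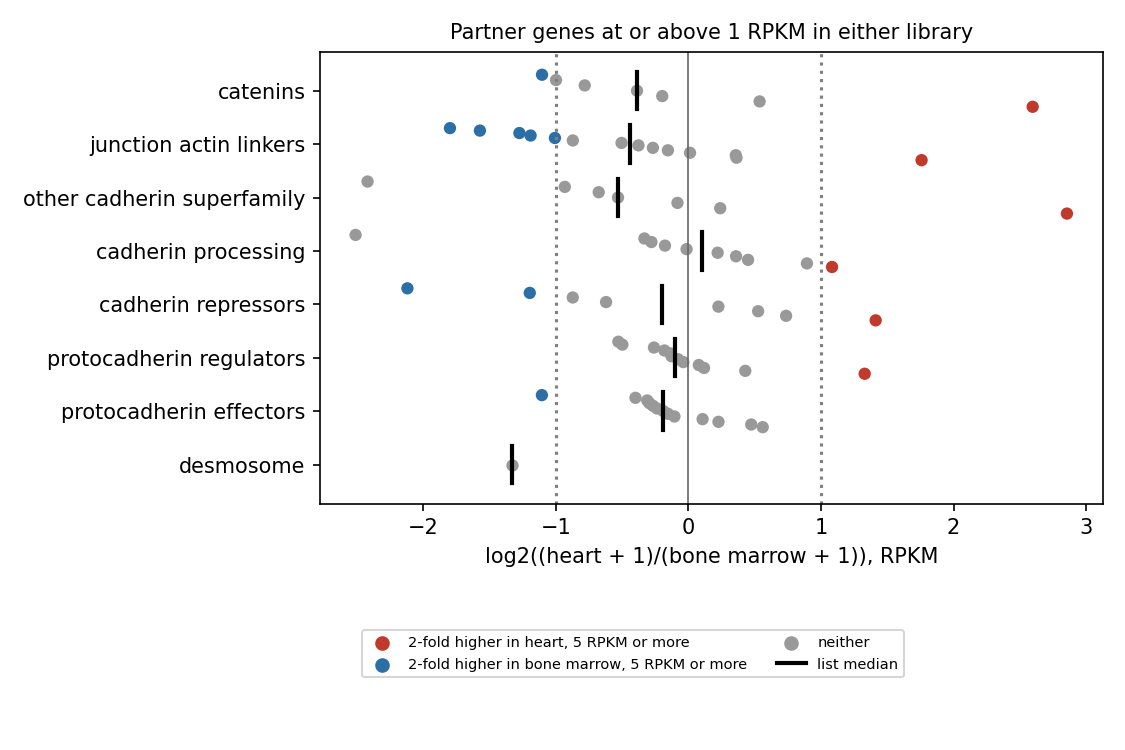
Log2((heart + 1)/(bone marrow + 1)) of partner genes at or above 1 RPKM in either library, with each point a gene, coloured by the 2-fold rule at 5 RPKM, and the bar the list median. Junction linkers have 1 point coloured for heart and 5 for bone marrow, and protocadherin regulators cluster within 2-fold except Dnmt3a.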

How the data were processed

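Total RNA (1 ug) of 1 heart and 1 bone marrow culture was made into standard Illumina libraries, per the labels' protocols. The authors deposited RPKM values, per the file headers. Aligner, counter and strand setting: not given in the sources used here. The submitters' processing notes name mm8, but 45149 rows (91.1%) have the region of a GENCODE M21 model on GRCm38, the build used for coordinates.

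Reads were recovered from RPKM and the exon-union length of the model. Of 14255 rows above 0 in heart and in bone marrow whose model length is known, 12292 (86.2%) gave whole reads for each (within 0.02), where chance gives 0.16%. This held for 74 members. For 10 others, the smallest whole reads that fit the ratio of the libraries and a whole model length were taken, so these are minimum counts, and 7 have none. The 10 are Cdh24, Pcdh8, Pcdh9, Pcdh11x, Pcdh12, Pcdh15, Pcdh17, Pcdhga9, Pcdhgb2 and Pcdhgc3. The libraries carry no stated molecular identifiers, and reads are not independent molecules, so the exact conditional (Clopper-Pearson) 95% intervals and the floor of 3 reads cover counting error only. The log2 ratio uses a pseudocount of 1 RPKM and understates differences of low genes. Rows sharing a symbol were represented by the highest for counts over all symbols, leaving 49492.

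Members and lists were chosen with earlier results of these data known. Members at or above 1 RPKM were named, with the highest of each cluster, cadherins of known cell types and, per partner list, up to 4 counted genes and the most abundant. Other low members, and Thy1, Nes, Tubb3, Vwf, Cd53, Lyz2, Krt8, Krt18, Krt19, Epcam, Ret, Pcsk6 and Actn4, were named after their values were seen. Alternatives were pseudocounts, floors, a 4-fold threshold, 3 scalings, read-based ratios and summed rows. Scripts were tested on simulated data. Versions were matplotlib 3.10.9, scipy 1.17.1, pandas 2.3.3, numpy 2.4.6 and Python 3.11.15. Sequences are from RefSeq.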

Additional observations from a re-analysis of the deposited data

How the results depend on the processing

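With 1 library per tissue, nothing here separates tissue from culture, medium or library. The 7 members higher in heart became 4 with a pseudocount of 5 RPKM, 13 with a floor of 1 RPKM or none, 1 with a floor of 20, 2 at 4-fold and 22 by plain ratio with at least 50 reads. The 1 member higher in bone marrow became 2 with a floor of 1 or none, 0 with a floor of 20 and 5 by plain ratio. The floors and the 50-read rule change which members are admitted, while a pseudocount of 5 and the 4-fold threshold act on the same 12. The median log2 ratio of 0.99 was 1.65 with a pseudocount of 0.1, 0.32 with 5, 1.29 over members at or above 5 RPKM and 0.037 over all members above 0. Scaling heart by the median ratio, a trimmed mean or the upper quartile (0.15, 0.072 or 0.087 on the log2 scale) kept both counts at 7 and 1, while over all symbols the heart share of calls went to 54.7%, 49.2% and 50.5%, against 44.3% as deposited. Signs turned for Cdh2 (0.0036) and the protocadherin regulators' median (0.039) with the median ratio set to 0, and for the cadherins' median (-0.13 at or above 5 RPKM, 0.051 as reported). By reads instead of RPKM, clustered protocadherins made up 23.0% of the family in heart and 14.0% in bone marrow. No paired analysis was possible because each tissue has 1 library.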
